A study of Mus musculus with 24 samples.

Results

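RSL24D1 is a placeholder protein of the nucleolus that occupies the site of RPL24 on the maturing pre-60S particle and leaves it in the cytoplasm, so that a ribosome can complete its large subunit. Mouse embryonic stem cells (ESCs) divide fast and depend on a high output of ribosomes, and cells in which this output fails are known to stabilise p53 through free ribosomal proteins that bind MDM2. Here CGR8 ESCs, a mouse line grown without feeder cells, had been depleted of Rsl24d1 with siRNAs, and an ectopic Rsl24d1 open reading frame was switched on in part of the cultures. The comparison asked which genes this re-expression moved and which it moved little.

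The 6 libraries compared were all those whose titles name day 0 cells transfected with siRNAs against Rsl24d1, 3 with rescue and 3 without, out of 24 libraries in 8 groups of 3 in the whole series. Both groups were CGR8 cells in FBS and LIF, collected 72 h after transfection by the protocol text, while the sample descriptions give 48 h. The rescued cultures received doxycycline, which induces the open reading frame, and carry the vector label RSL24D1_OE. The unrescued cultures received no doxycycline and carry the vector label empty_vector, so by the labels the inducer, the vector and the ectopic mRNA change together between the groups. The methods of the study differ from this label, since they describe a single inducible line kept with the inducer or without it. The day 0 si-CTL cultures, 3 with rescue and 3 without it, carry the same labels for vector and doxycycline. They show what vector and inducer do in undepleted cells. The 3 and 3 si-Rsl24d1 cultures kept for 4 days in 10 nM retinoic acid (RA) show the rescue after differentiation. By the study's methods these day 4 cultures were also kept without LIF, so RA, time and the loss of LIF change together between the days. All cultures come from 1 cell line, and the labels do not say whether the replicates were separate cultures, so the p-values measure the spread between these libraries.

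Values are levels as log2(scaled TPM + 1) unless stated otherwise, where TPM is a level per transcript length within a library, and scaling sets the median gene of each library level with the others. A gene is said to have risen or fallen where limma's adjusted p was below 0.01, and is called where the change was also over 1.8-fold. The depth of the libraries is unknown, since TPM keep no read number. Markers of ESCs were high in all 6 libraries: Pou5f1 lay between 9.73 and 10.03, Sox2 between 8.01 and 8.11 and Nanog between 7.05 and 7.30, and the group means of Dppa5a were 11.07 without and 11.45 with rescue. The libraries list between 23857 and 25176 genes above 0. Since these are bulk RNA values, fewer cells that express a gene and less of its RNA per cell cannot be told apart.

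The re-expression brought Rsl24d1 mRNA close to its undepleted level. In scaled TPM, the unrescued si-Rsl24d1 libraries held 34.63, 36.02 and 32.04, and the rescued ones 110.8, 102.6 and 120.4. The si-CTL libraries without rescue lay at 134, 134 and 131.7, above all 3 rescued libraries. The mean was thus 25.7% of the si-CTL mean in depleted cells and 83.5% in rescued cells, a 3.25-fold rise (34.23 ± 2.02 to 111.2 ± 8.91, SD, n = 3 each). On the log2 scale the rise was 1.67 (SE 0.05, limma adjusted p = 3.2e-14). In si-CTL cells the same induction took the gene from 133.3 ± 1.31 to 159.1 ± 1.47, a log2 difference of 0.25 that did not pass the test (limma adjusted p = 0.075). The si-CTL groups still did not overlap, with 159, 157.7 and 160.6 in the rescued libraries.

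The mRNA counted as Rsl24d1 can be the cell's own or the ectopic one, and the gene-level table does not separate them. Rsl24d1 lies at chr9:73113426-73123333 on the plus strand of GRCm38, and its transcript Rsl24d1-201 has 1543 bases, of which the open reading frame takes 492 bases (31.9%) from base 56 on, in 6 coding exons. A transcript that carries the open reading frame without the long untranslated remainder is shorter than the model against which TPM were computed, and how the estimate treats it was not tested. The ectopic mRNA is described by the study as resistant to the siRNAs, its sequence was not analysed here, and how far it matches the gene's own is not known. The first 240 bases of the gene's own reading frame are shown to identify the coding sequence, from the GENCODE transcript with the start codon in capitals.
Rsl24d1-201 reading frame: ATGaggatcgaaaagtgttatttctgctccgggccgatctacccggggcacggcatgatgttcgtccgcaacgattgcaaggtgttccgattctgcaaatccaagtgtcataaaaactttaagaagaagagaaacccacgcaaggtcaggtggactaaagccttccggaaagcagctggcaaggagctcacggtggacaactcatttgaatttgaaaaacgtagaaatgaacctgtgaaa

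**Figure D1:**
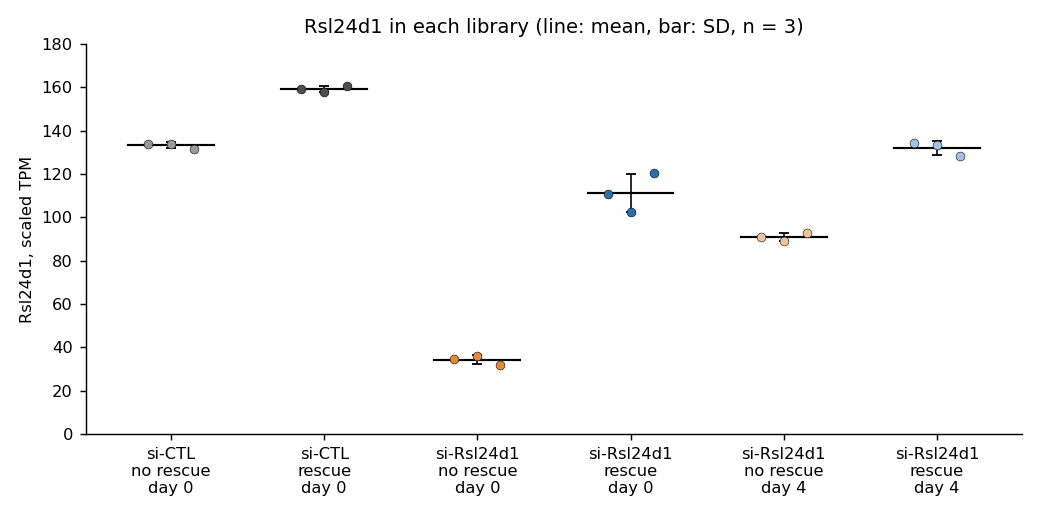
Rsl24d1 in scaled TPM (vertical axis, from 0) in each library of the 4 day 0 groups and the si-Rsl24d1 groups of day 4. Points are libraries, lines are means and bars are SD (n = 3). The rescued day 0 si-Rsl24d1 libraries, at 102.6 to 120.4, lie above every unrescued one and below every si-CTL library of day 0.

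Across the transcriptome many genes moved and few moved far. Of 16446 genes tested, 1163 rose (7.07%) and 1345 fell (8.18%) with the re-expression, and 23 of them were called (0.140%), 9 higher and 14 lower. The shares of 7.07% and 8.18% are the background for all counts of list members below. In 7009 genes (42.6%) the rescued and the unrescued libraries did not overlap, with the rescued ones above in 19.6% and below in 23.0% of all genes. The middle of the distribution was narrow: the quartiles of all log2 differences lay at -0.15 and 0.12. This split depends on the scaling, because in the TPM as deposited the median gene differed by -0.11 between the groups, against -0.02 after scaling. In si-CTL cells the median gene as deposited differed by -0.12 with rescue, so this offset was present without depletion. Without scaling 504 genes rose and 2007 fell in depleted cells, with 5 called higher and 41 lower. Small rises given below are thus relative to the median gene. The number of called genes was 41 when the third rescued library was left out.

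**Figure D2:**
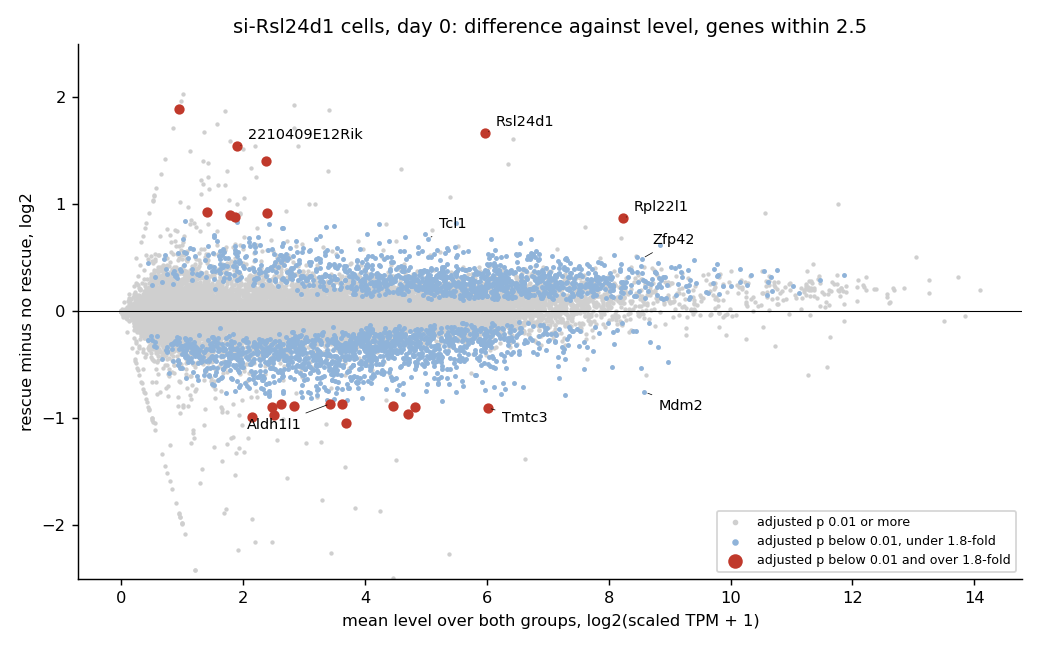
Log2 difference, rescue minus no rescue, in day 0 si-Rsl24d1 cells (vertical axis) against the mean level over both groups in log2(scaled TPM + 1) (horizontal axis). Each point is a gene with a difference within 2.5. Genes past both thresholds are red and few beside the 1163 and 1345 genes that passed the adjusted p, and Rsl24d1 (1.67) stands apart at its level.

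Besides Rsl24d1 itself, the called genes that rose were mostly low or poorly characterised. The exception was Rpl22l1 (ENSMUSG00000039221, chr3:28805436-28807424, plus strand), a paralogue of the 60S protein RPL22. Its levels were 7.82, 7.75 and 7.82 without rescue and 8.81, 8.79 and 8.40 with it, against a si-CTL mean of 9.09. The groups did not overlap, and the gene rose by 0.87 (SE 0.15, adjusted p = 0.00025). In si-CTL cells its difference was 0.42 (adjusted p = 0.093), and the difference between the siRNAs did not pass the test (0.46, adjusted p = 0.23). The retrocopy 2210409E12Rik, read from inside the gene Coil on the same strand, went from 0.98, 0.98 and 1.43 to 2.81, 2.62 and 2.61, a rise of 1.55 (SE 0.14). Coil, which encodes the scaffold of Cajal bodies, rose by 0.21 (adjusted p = 0.000193), and reads of the pair may be shared. The lincRNA Gm31659 rose by 1.41, Elobl by 0.93, the lincRNA Gm40977 by 0.92, Tnfsfm13 by 0.90 and Crxos by 0.88. Tnfsfm13 is a readthrough locus that overlaps Tnfsf12 (0.39, adjusted p = 0.00224) and Tnfsf13 (-0.04, adjusted p = 0.906) on its strand, so its value is uncertain. Among these, Crxos and Gm31659 no longer passed when the 6 libraries were fitted alone. In si-CTL cells Elobl and Crxos differed by 0.48 each (limma adjusted p = 0.075 and 0.085). Their difference between the siRNAs did not pass either (0.45 and 0.39, limma adjusted p = 0.12 and 0.37). The snoRNA gene Gm25604 is listed at 0 in the 3 unrescued libraries and lay between 1.60 and 2.26 in the rescued ones.

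All called genes that fell except Gm28900 had been higher in depleted than in si-CTL cells, a comparison that shares the unrescued depleted libraries. Cpz, a secreted carboxypeptidase that binds Wnt proteins, stood at 4.07, 3.94 and 4.14 without rescue and at 3.19, 3.14 and 3.24 with it, against a si-CTL mean of 0.81. Aldh1l1, an enzyme of folate metabolism, stood at 3.90, 3.77 and 3.92 and then at 3.00, 2.93 and 3.07, against 1.57. Both fell by 0.86 on the log2 scale (SE 0.08 and 0.07, adjusted p = 5.7e-07 and 1.8e-07) and remained well above the si-CTL libraries. Leaving aside called genes listed at 0 with rescue, the highest level among those that fell was that of Tmtc3, a membrane protein of the endoplasmic reticulum. Tmtc3 went from 6.58, 6.36 and 6.46 to 5.47, 5.56 and 5.66, with a si-CTL mean of 4.59. It fell by 0.90 (SE 0.07).

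The other called genes that fell lay at lower levels in depleted cells, from 2.46 in a Robo3 library to 5.32 in a Gm48764 library, leaving aside those listed at 0. Robo3, an axon guidance receptor, fell by 0.98, Apol8 by 0.96, Plcd4, a phospholipase C, by 0.89 and Ptprv, a locus known as a p53-induced phosphatase transcript, by 0.88. Non-coding loci made up the rest. Gm49858 fell by 1.04, Gm45899 by 0.96, Gm48764 by 0.89, Gm47404, which lies in an intron of Chrm3, by 0.88, and 5830418P13Rik, antisense to Bfsp2, by 0.87. Gm47924 was listed at 0 in all 3 rescued libraries and at 2.71, 3.73 and 2.15 in the unrescued ones, and Gm28900 at 0 in the rescued against 8.09, 7.48 and 7.22. Both are given without a fold, since an exact 0 in such a table can be a failed estimate.

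The p53 list was the one in which the largest share of members passed. Of 44 tested genes of p53 feedback and p53 targets, 37 fell and 0 rose, against 8.18% of all genes that fell. Mdm2, Zfp365 and Ptp4a3 of this list had already been named for the knockdown in these samples. The median log2 difference of the list was -0.43, and -0.02 over all genes tested. The same genes had differed by a median of 1.18 between depleted and si-CTL cells, a comparison that shares the unrescued depleted libraries. The list was chosen with earlier results of these data known. In 38 of the 44 genes every rescued library lay below every unrescued one, against 23.0% of all genes. The mean level of the list was 5.91, 5.86 and 5.92 in the unrescued libraries, 5.50, 5.48 and 5.52 in the rescued ones and 4.80, 4.79 and 4.81 in the si-CTL libraries. The 3 groups did not overlap, with the rescued libraries between the others. In si-CTL cells the median difference of the same genes with rescue was -0.005. The number of falls was 37 in the TPM as deposited and 28 when the 6 libraries were fitted alone.

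Mdm2, the ubiquitin ligase that holds p53 low and is itself a p53 target, stood at 9.01, 8.89 and 8.99 in depleted cells and at 8.18, 8.20 and 8.25 after re-expression. The si-CTL libraries lay at 6.64, 6.60 and 6.58, so every rescued library was below the depleted ones and far above the controls. Mdm2 fell by 0.75 (SE 0.04, adjusted p = 1.5e-10). Cdkn1a, which encodes the cyclin-dependent kinase inhibitor p21, went from 6.58, 6.55 and 6.67 to 6.24, 6.21 and 6.16 and fell by 0.40 (SE 0.04, adjusted p = 1.1e-06), with a si-CTL mean of 5.40. Trp53 itself, the gene of p53, lay at 8.84, 8.83 and 8.86 and then at 8.84, 8.82 and 8.85. Its difference was -0.01 (SE 0.04, adjusted p = 0.89), and the groups overlapped.

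Other members served the arrest, death and repair branches of the response. Ccng1, a cyclin induced by p53, fell by 0.53 and Btg2, an antiproliferative factor, by 0.53. Among death genes, Perp fell by 0.62, Fas by 0.75, Pmaip1 by 0.64, Bbc3 by 0.21, Apaf1 by 0.68 and Eda2r by 0.62. Among feedback genes, Trp53inp1 fell by 0.78, Zmat3 by 0.54, Ppm1d by 0.29 and Mdm4 by 0.29. Among DNA repair genes, Polk fell by 0.53 and Ercc5 by 0.51. The phosphatase gene Ptp4a3 stood at 7.41, 7.40 and 7.46 and then at 6.91, 6.94 and 6.89, which was a fall of 0.51. Of the 7 members that did not pass, Bax differed by 0.15 (adjusted p = 0.11), Sesn1 by 0.11 (adjusted p = 0.26) and Gdf15 by -0.09 (adjusted p = 0.59).

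To set the regulatory sequence beside these values, promoters from RefSeq (GRCm38.p6) were searched on both strands. Each covers 250 bases before to 50 after the gene start, and sites outside this window were not searched. The search was for a single decamer of the p53 element, to which a p53 dimer binds, and not for the full element. This decamer was found in 2745 of 32851 promoter entries (8.36%). Of 35 list genes with a promoter entry, 13 held it and 9 of these had fallen, while 29 of the 35 had fallen in all. The 35 genes have 48 entries, and a gene was counted where any of its entries matched. These counts are thus per gene, while the 8.36% is per entry. Genes with and without the letters both fell, and Bax, Rps27l, Sesn1 and Trp53 held them and did not pass. Overlap with other motifs was not tested. The 3 promoters shown belong to the ligase, cyclin and p21 genes described above, all of which fell. They are written 5′ to 3′ along the gene, with a matched decamer in capitals, which begins 186, 185 and 73 bases before the gene start. Further along the Cdkn1a window, the letters gaacatgtct also fit the decamer and are left in lower case. The windows lie at chr10:117710885-117710994 on the minus strand for Mdm2, chr11:40755412-40755521 on the minus strand for Ccng1 and chr17:29090856-29090965 on the plus strand for Cdkn1a.
Mdm2: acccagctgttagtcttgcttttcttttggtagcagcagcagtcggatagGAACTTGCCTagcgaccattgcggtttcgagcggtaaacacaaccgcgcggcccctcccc
Ccng1: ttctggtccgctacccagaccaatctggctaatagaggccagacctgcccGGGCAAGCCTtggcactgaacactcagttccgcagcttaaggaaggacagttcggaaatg
Cdkn1a: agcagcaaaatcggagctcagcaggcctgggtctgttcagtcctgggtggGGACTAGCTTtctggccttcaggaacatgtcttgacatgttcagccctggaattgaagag

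**Figure D3:**
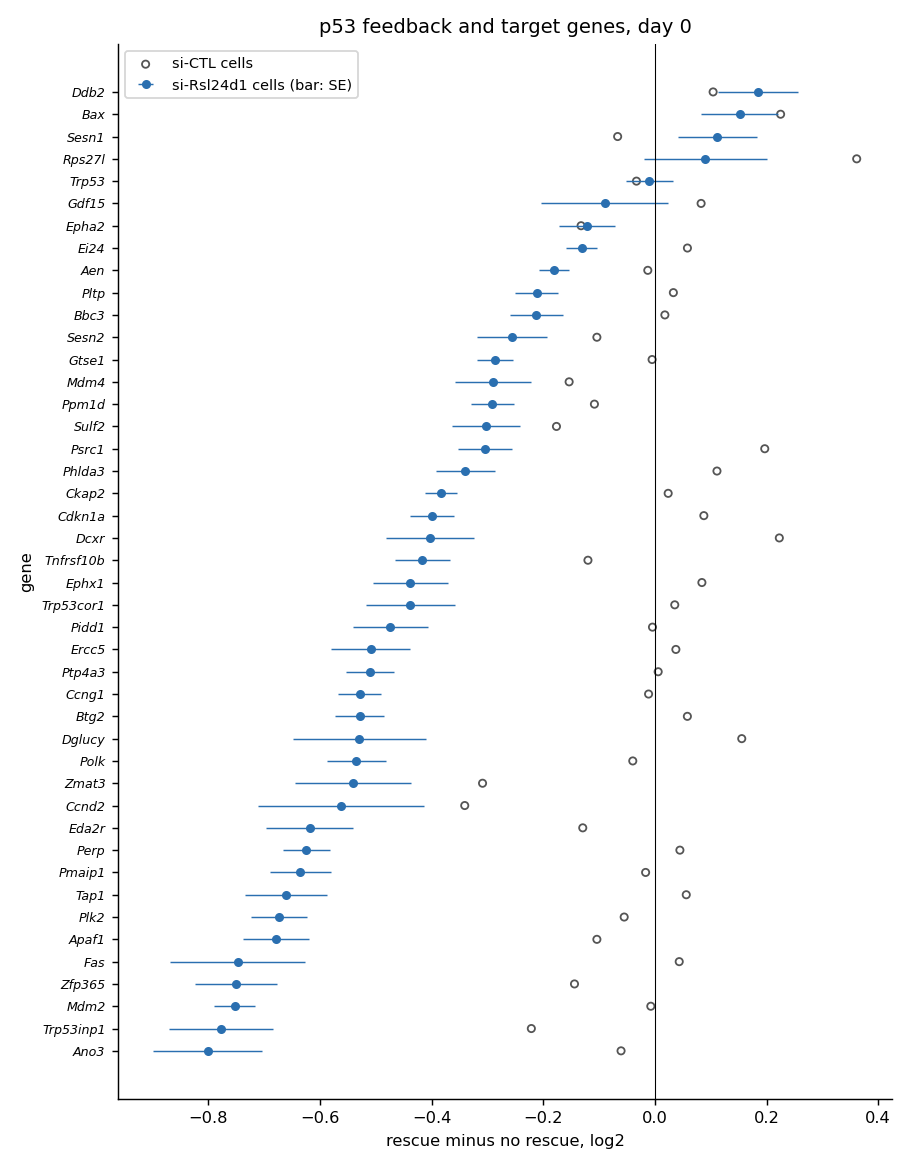
Log2 difference, rescue minus no rescue (horizontal axis), of each of the 44 tested p53 feedback and target genes (vertical axis, ordered by value). Filled points with SE bars are day 0 si-Rsl24d1 cells and open points are si-CTL cells. The filled points run from -0.80 to 0.18 with 40 below 0, while the open points have a median of -0.005.

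The pluripotency network moved the other way. Of 23 pluripotency factors, 10 rose and 0 fell (7.07% of all genes rose), with a median difference of 0.21. Zfp42, Nr0b1 and Klf4 are among the 10 and had already been named for the knockdown in these samples, so they are no independent evidence. All 10 had been lower in depleted than in si-CTL cells, a comparison that shares the unrescued depleted libraries. Zfp42 (Rex1), a zinc finger factor of the naive state, stood at 8.30, 8.31 and 8.28 without rescue and at 8.82, 8.81 and 8.75 with it, and rose by 0.49 (SE 0.05, adjusted p = 5.7e-07). The si-CTL mean of this gene was 9.23. Nr0b1 (Dax1), a nuclear receptor of the same network, went from 5.06, 5.07 and 5.01 to 5.70, 5.65 and 5.56 and rose by 0.59 (SE 0.08, adjusted p = 1.9e-05), against a si-CTL mean of 6.16. Tcl1, a coactivator of AKT, went from 4.63, 4.82 and 4.63 to 5.41, 5.46 and 5.24 and rose by 0.68 (SE 0.07, adjusted p = 1.6e-06), against 5.93. In each of these genes the rescued libraries lay between the other groups without overlap.

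The core factors moved less. Fgf4, the growth factor that ESCs make for themselves, rose by 0.37, Klf2 by 0.32, Klf4 by 0.31, Esrrb by 0.30, Prdm14 by 0.30, Pou5f1 by 0.24 and Nanog by 0.21. Sox2 stood at 8.11, 8.04 and 8.07 and then at 8.06, 8.01 and 8.03, a difference of -0.04 (SE 0.04, adjusted p = 0.43) with overlapping groups. It had also not differed between depleted and si-CTL cells beyond the test (0.01, adjusted p = 0.84). In the TPM as deposited 5 of the 23 factors rose and Pou5f1, Nanog and Klf4 no longer passed, at 0.12, 0.09 and 0.19.

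Genes of the formative and post-implantation state, through which ESCs pass on leaving the naive state, did not move in 1 direction. Of 16, 2 rose and 4 fell, where 7.07% of all genes rose and 8.18% fell. Foxd3 rose by 0.40 and the DNA methyltransferase Dnmt3b by 0.22, a call that was lost with the replicate block. The signalling gene Wnt8a fell by 0.72, from 3.89, 3.84 and 3.98 to 3.22, 3.24 and 3.11, and Sall2 fell by 0.46, Cdh2 by 0.41 and the POU factor Pou3f1 by 0.29. As deposited, 0 rose and 6 fell, and when the 6 libraries were fitted alone 1 rose and 1 fell.

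**Figure D4:**
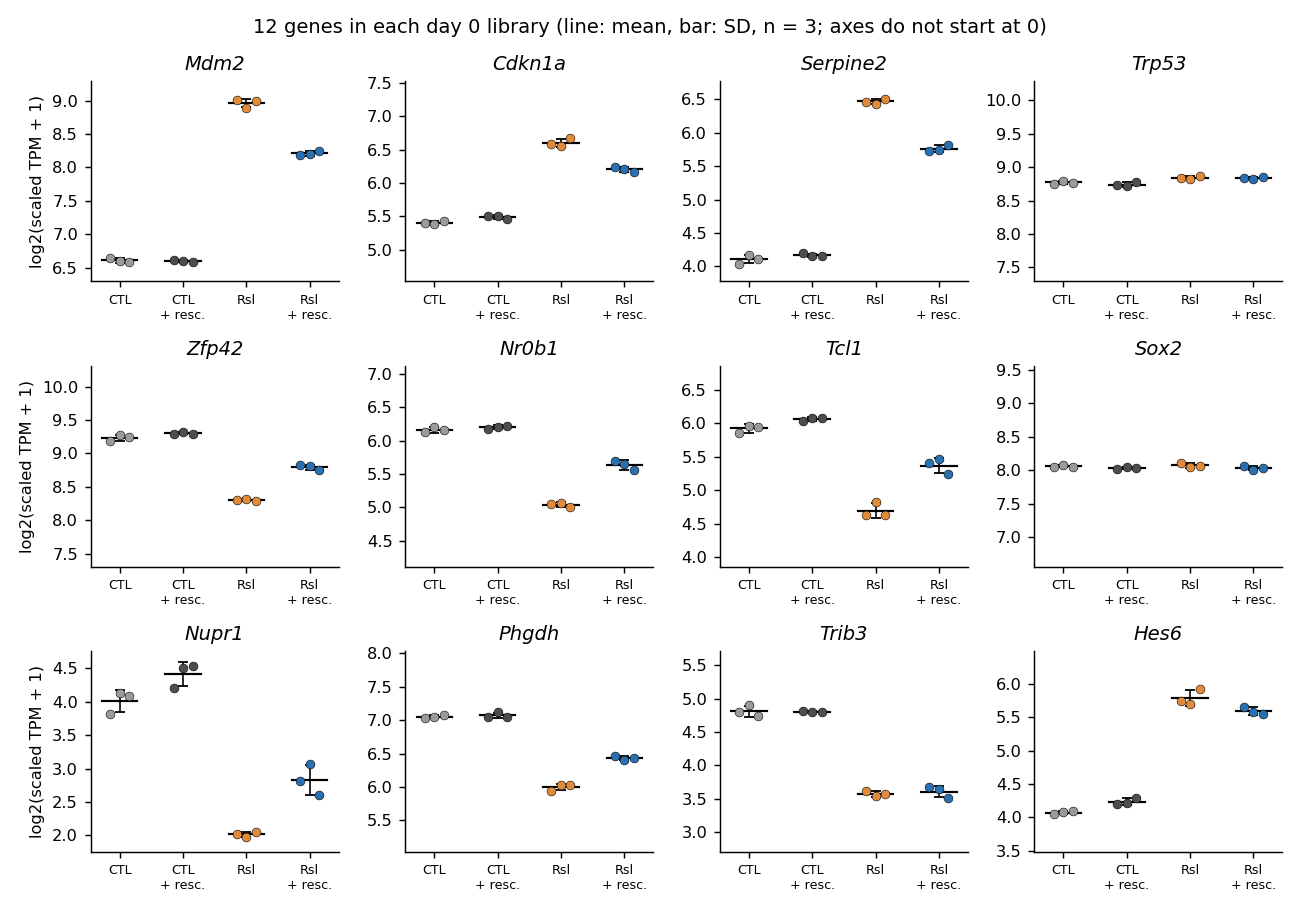
Levels of 12 genes in log2(scaled TPM + 1) (vertical axes, which do not start at 0) in each library of the 4 day 0 groups, with CTL for si-CTL, Rsl for si-Rsl24d1 and resc. for rescue. Points are libraries, lines are means and bars are SD (n = 3). In Mdm2, Cdkn1a, Serpine2, Zfp42, Nr0b1 and Tcl1 the rescued depleted libraries lie between the depleted and the si-CTL ones, while Trp53 and Sox2 are level and Trib3 stays at its depleted level.

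Genes of growth metabolism rose in part of their members. Of 21 glycolysis enzymes and glucose transporters 10 rose and 0 fell, where 7.07% of all genes rose, with a median of 0.23. Aldoa, the fructose-bisphosphate aldolase, went from 9.90, 10.01 and 9.95 to 10.39, 10.39 and 10.28 and rose by 0.40 (SE 0.07, adjusted p = 0.00042). Its paralogue Aldoc rose by 0.58, Tpi1 by 0.39, Pdk1, the kinase that blocks pyruvate dehydrogenase, by 0.32 and Ldha by 0.28. Of 24 cholesterol synthesis enzymes 8 rose and 0 fell, with a median of 0.18. Fdps, the farnesyl diphosphate synthase, went from 7.09, 7.02 and 7.09 to 7.63, 7.57 and 7.45 and rose by 0.48 (SE 0.07), and Mvd, an enzyme of the mevalonate branch, rose by 0.28. Each list had 3 rises in the TPM as deposited and 3 in the fit of the 6 libraries alone.

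Genes of DNA replication also rose in part. Of 35, 15 rose and 0 fell, with a median of 0.15, and in 28 every rescued library lay above every unrescued one, against 19.6% of all genes. Ccne1 (cyclin E1) went from 6.56, 6.61 and 6.59 to 7.03, 6.99 and 7.04 and rose by 0.43 (SE 0.04, adjusted p = 1.8e-07). Chaf1b, a subunit of the chromatin assembly factor, rose by 0.35, Tk1 (thymidine kinase) by 0.35, Gins2 by 0.44 and Pcna by 0.37. As deposited 7 of them rose. Of 28 genes of G2 and mitosis, Aurkb rose by 0.20 and Hmmr fell by 0.27, with a list median of -0.01. The list did not stand out from the 7.07% and 8.18% of all genes that rose and fell. Among 15 cyclin D and CDK inhibitor genes 1 rose and 5 fell. Ccnd3 rose by 0.33, while the pocket protein genes Rb1 and Rbl2 fell by 0.74 and 0.47, Ccnd2 by 0.56 and Cdkn2b by 0.37, beside Cdkn1a.

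Targets of ATF4, the transcription factor of amino acid and ER stress, rose in a minority. Of 35, 8 rose and 2 fell, where 7.07% of all genes rose and 8.18% fell. Nupr1, Chac1 and Pck2 of this list had already been named for the knockdown in these samples. The median was 0.14, where the same genes had differed by a median of -0.86 between depleted and si-CTL cells. The comparisons share the unrescued depleted libraries. Nupr1, a stress-induced chromatin protein, went from 2.02, 1.97 and 2.05 to 2.82, 3.06 and 2.61 and rose by 0.82 (SE 0.14, adjusted p = 0.00037), still under its si-CTL mean of 4.01. Phgdh, the entry enzyme of serine synthesis, went from 5.95, 6.03 and 6.03 to 6.46, 6.41 and 6.44 and rose by 0.43 (SE 0.04, adjusted p = 1.9e-07), against 7.05. Psph rose by 0.47, Mthfd2 by 0.40 and Shmt2 by 0.27, all enzymes of serine and folate metabolism. Ddit4, an inhibitor of mTORC1, and Atf3 had been higher in depleted cells and fell by 0.54 and 0.44. Without scaling 3 rose, and leaving out the first rescued library left 2 rises.

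The CARE letters TGATGNAA, to which ATF4 and C/EBP factors bind, were found on either strand in 1304 of the 32851 promoter entries (3.97%). Of 29 list genes with an entry, 10 held them and 3 of these had passed the test. The 29 genes have 35 entries and were again counted per gene, while the 3.97% is per entry. A match from a gene that rose (Nupr1, chr7:126625523-126625630, minus strand, match 110 bases before the start) is shown with that of the asparagine synthetase gene Asns (chr6:7693210-7693282, minus strand, match 23 bases before the start), whose difference of 0.12 did not pass (adjusted p = 0.232). Asns was chosen after its value was seen. Capitals mark the match, which in Nupr1 is on the opposite strand and so reads as the reverse complement.
Nupr1: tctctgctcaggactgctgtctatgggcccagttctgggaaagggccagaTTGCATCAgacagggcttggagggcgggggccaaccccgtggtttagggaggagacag
Asns: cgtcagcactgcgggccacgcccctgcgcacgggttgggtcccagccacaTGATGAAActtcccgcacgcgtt

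Genes of the ribosome itself were mostly higher with rescue, and few passed the test. Rpl24, whose protein takes the site that RSL24D1 leaves, lay at 10.46, 10.45 and 10.55 without rescue and at 10.89, 10.82 and 10.59 with it. The rescued libraries were higher, but the difference of 0.28 (SE 0.10) did not pass (adjusted p = 0.044). Rpl8 differed by 0.20 (adjusted p = 0.035). Of 47 large subunit protein genes 46 had a positive difference, with a median of 0.22, and 31 had an unadjusted p below 0.05. Of 32 small subunit protein genes 32 were positive, with a median of 0.21, and 19 were at that unadjusted p. Only 1 rose in each list, Rpl3 by 0.42 and Fau by 0.32. The si-CTL cells had medians of 0.32 and 0.31 with rescue, so the offset in these lists was present without depletion. Without the third rescued library 8 and 5 of these genes rose.

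Among 38 large subunit assembly factors 4 rose, Rsl24d1 included, and 1 fell, where 7.07% of all genes rose and 8.18% fell, so the list stood near the background. Gtpbp4, the GTPase that acts on the same pre-60S particles, rose by 0.30, Bop1 by 0.21 and Eif6, which keeps the subunits apart, by 0.18 (from 6.96, 6.99 and 7.05 to 7.19, 7.20 and 7.15). Mak16 fell by 0.14. Of 40 small subunit assembly factors 5 rose, among them Rrp9 by 0.26, Emg1 by 0.26 and Imp4 by 0.21, and Utp20 fell by 0.37. The medians of 0.06 and 0.03 turned to -0.05 and -0.09 in the TPM as deposited, where Eif6, Rrp9 and Imp4 no longer passed, so these lists have no direction that holds under both scalings. The mitochondrial chaperones and proteases, of which 4 of 14 rose (Hspe1 by 0.34 and Htra2 by 0.25 among them), had a median of 0.09 that likewise turned to -0.03. Of 15 genes of the mitochondrial genome 0 passed in either direction by limma, with 6 at an unadjusted p below 0.05, and mt-Co1 differed by -0.04 (adjusted p = 0.74).

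Most lineage regulators that passed were lower. Of 160 genes of homeobox, T-box, Wnt and other developmental families 69 were tested, and 2 rose and 18 fell, with a median of -0.10. Over all genes 7.07% rose and 8.18% fell. Tbx4 went from 2.84, 2.78 and 2.84 to 1.97, 2.04 and 2.08 and fell by 0.79, against a si-CTL mean of 0.48. Neurod1, a neurogenic bHLH factor, went from 4.95, 4.84 and 4.94 to 4.18, 4.21 and 4.27 and fell by 0.69, against 2.31. Hoxc13 fell by 0.61, Irx3 by 0.54 and Wnt6 by 0.55. Pax6, which encodes a regulator of eye and neural development, rose by 0.30. When the 6 libraries were fitted alone 8 fell and 0 rose.

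The Polycomb machinery that silences such regulators changed in few subunits. Of 13 PRC2 subunits 1 rose, near the 7.07% of all genes that rose. The gene was Epop, an auxiliary subunit, at 6.96, 6.95 and 6.90 without rescue and 7.41, 7.37 and 7.45 with it, a rise of 0.47 (SE 0.05, adjusted p = 6e-06). The core subunits Eed, Ezh2 and Suz12 differed by 0.07, 0.08 and -0.04, with adjusted p of 0.14, 0.21 and 0.55 by limma. Of 23 PRC1 subunits 1 rose (Pcgf6, 0.23) and 4 fell, where 7.07% of all genes rose and 8.18% fell. The falls were Phc2 (-0.46), Pcgf3 (-0.42), Bcor (-0.26) and Phc1 (-0.18).

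Signalling genes went in both directions. Of 17 FGF-ERK feedback and early response genes 2 rose and 6 fell, where 7.07% of all genes rose and 8.18% fell. The feedback inhibitors Dusp6 and Spry2 fell by 0.27 and 0.20 and the ETS factor Etv5 by 0.31, while Myc rose by 0.35 and Ier2 by 0.31. Leaving out any of the unrescued libraries, or the first or second rescued one, reduced the falls to 1 or 2, and the replicate block reduced them to 3. Nodal, the TGF-beta ligand of the epiblast, went from 6.22, 6.20 and 6.32 to 5.81, 5.79 and 5.86 and fell by 0.43, the only gene of 16 in the Nodal and BMP pathways to pass. That list stood near the background. Of 15 LIF-Stat3 genes 3 rose (Klf4, Pim1 and Pim3) and 3 fell, among them Lif itself by 0.48 and Jak2 by 0.28. As deposited 0 of the 15 rose and 3 fell, and without unrescued library 2 or rescued library 2 the falls were 1.

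Of 32 genes of the actin skeleton, adhesion and the extracellular matrix 10 fell and 0 rose, with a median of -0.16. Over all genes 8.18% fell. The protease inhibitor gene Serpine2 went from 6.47, 6.43 and 6.51 to 5.73, 5.74 and 5.82 and fell by 0.71 (SE 0.05, adjusted p = 3.1e-08), with a si-CTL mean of 4.11. The YAP-responsive genes Ccn1 and Ccn2 fell by 0.44 and 0.38. When the first rescued library was left out, 4 of the list fell. Of 16 tested two-cell stage genes 4 fell and 0 rose, with a median of -0.30, Zfp809 by 0.36 and Gm8300 by 0.53 among them. This count was 8 as deposited and 0 in the fit of the 6 libraries alone. Of 21 germ cell genes 3 rose, where 7.07% of all genes rose. Stra8 rose by 0.66 and Rhox5 by 0.57 among them, and Rec8 fell by 0.36.

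A list of 15 genes already named for the knockdown had 4 rises and 7 falls, Nupr1, Zfp42, Nr0b1 and Klf4 among the first and Cpz, Zfp365 and Serpine2 among the second. It was chosen on these samples and is no independent evidence of a direction. The same holds for its members in other lists. Among them are Mdm2, Zfp365 and Ptp4a3 (p53), Zfp42, Nr0b1 and Klf4 (pluripotency), Nupr1, Chac1 and Pck2 (ATF4) and Serpine2 (actin and matrix).

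Among markers of other cell types, those of trophoblast were lower with rescue, those of neural cells went both ways, and those of fibroblasts and primitive endoderm did not pass. The mean level of 7 tested fibroblast markers was between 1.71 and 1.76 without rescue and between 1.63 and 1.73 with it, and 0 of them passed by limma, with 3 at an unadjusted p below 0.05. For 7 trophoblast markers it was 2.51 to 2.56 and 2.27 to 2.33, without overlap. All 7 had a negative difference, with a median of -0.24, and 3 fell (Cdx2 by 0.29, Gata3 by 0.40 and Tfap2c by 0.44). In si-CTL cells the same 7 had a median of -0.15 with rescue, so part of this offset was present without depletion. By limma 0 of them passed the test of the difference between the siRNAs. Cdx2 differed by -0.25 in si-CTL cells (limma adjusted p = 0.075). For 6 primitive endoderm markers it was 1.07 to 1.22 and 1.03 to 1.16, with 0 passed by limma and 1 at that unadjusted p, and for 6 neural markers 3.55 to 3.60 and 3.39 to 3.48, again without overlap, with Pax6 risen and Nes and Neurod1 fallen. The fibroblast marker Lum, the trophoblast marker Elf5, the endoderm markers Sox7 and Foxa2 and the neural marker Dcx did not reach the level needed for a test. Their part in the results above was not tested.

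**Figure D5:**
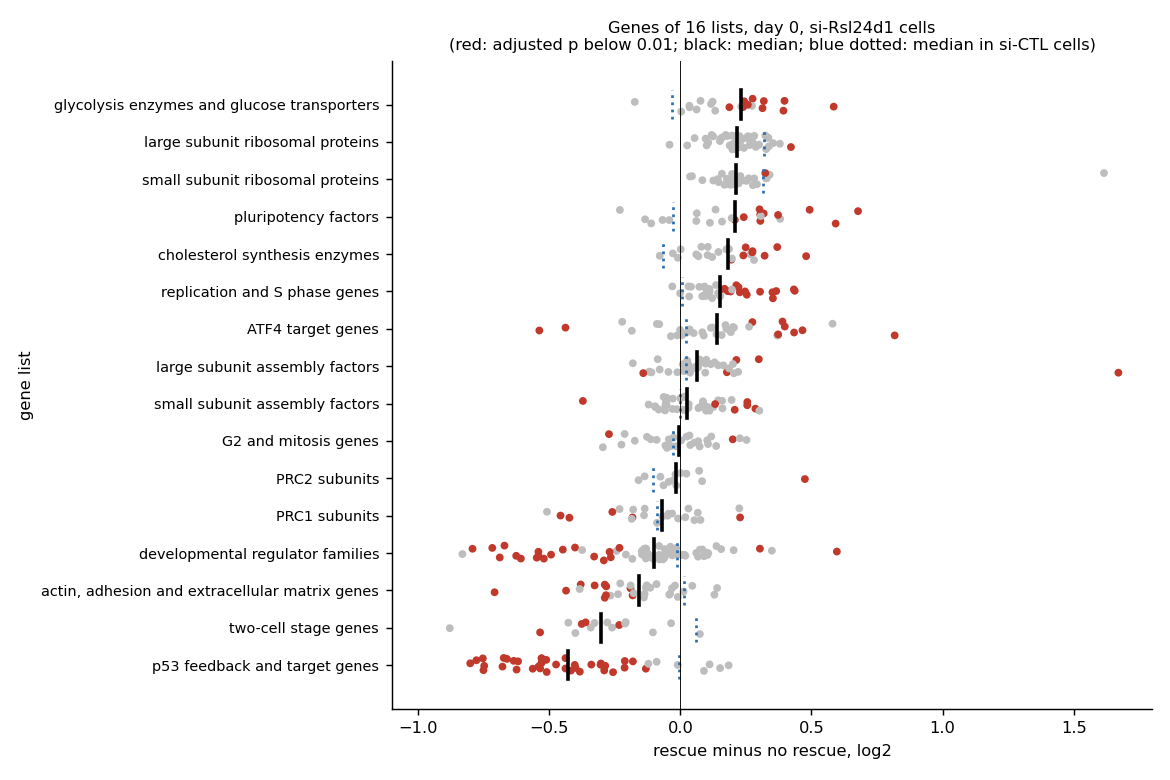
Log2 difference, rescue minus no rescue, in day 0 si-Rsl24d1 cells (horizontal axis) of every tested gene in 16 of the lists (vertical axis). Points are genes, red where the adjusted p was below 0.01, black lines are list medians and dotted blue lines are the medians of the same genes in si-CTL cells. The p53 list lies at a median of -0.43 against -0.005 in si-CTL cells, whereas both lists of ribosomal proteins lie right of 0 in both.

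Some genes of the knockdown moved by less than a set limit. Of 687 genes called between depleted and si-CTL cells without rescue, 139 had a 95% interval of the rescue difference that stayed within 0.5 of 0 in either direction. Of these, 98 had been higher and 41 lower in depleted cells. An interval within this limit can still leave out 0, and on this scale the limit allows a low gene a larger fold. A change near 0.848, the least at which a gene was called, could be reversed in good part within 0.5. How many of all genes tested stay within the limit was not counted. The knockdown comparison shares the unrescued depleted libraries. Trib3, a pseudokinase gene of the ATF4 programme, lay at 3.62, 3.54 and 3.57 without and 3.68, 3.64 and 3.51 with rescue, against a si-CTL mean of 4.81. Its difference was 0.04 with an interval from -0.32 to 0.39, and the groups overlapped. Gpt2 (0.17), Aldh18a1 (0.12), Herpud1 (0.29), Adm2 (0.29) and Gm26812 (0.13) were the other genes with the strongest loss in depleted cells that stayed within the limit, and Gpt2 and Aldh18a1 encode enzymes of alanine and proline synthesis. In Gpt2, Aldh18a1, Herpud1 and Adm2 every rescued library lay above every unrescued one. The intervals of Gpt2, Herpud1 and Adm2 lay above 0, with limma adjusted p of 0.038, 0.032 and 0.018 that did not pass. For Adm2 the means in scaled TPM were 0.266 without and 0.543 with rescue.

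Among the genes that had gained most in depleted cells, Hes6, a bHLH gene of the Notch network, lay at 5.75, 5.70 and 5.92 and then at 5.66, 5.57 and 5.55, against a si-CTL mean of 4.07. Every rescued library lay below the unrescued ones, the difference of -0.20 did not pass (adjusted p = 0.065), and neither did those of Gadd45g (-0.27, adjusted p = 0.031) and Rln1 (-0.19, adjusted p = 0.23). Dhx16, a splicing helicase gene, fell by 0.33, Commd3 by 0.32 and Mcam, an adhesion molecule gene, by 0.40. These 3 passed the test with intervals inside the limit, so their fall was small beside an excess of 1.63, 1.57 and 1.47 in depleted over si-CTL cells. In the TPM as deposited Gadd45g and Hes6 did pass, at -0.39 and -0.31.

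Short and non-polyadenylated RNAs varied widely between libraries. The mean level of 9 transcripts of RNA polymerase III was 5.32, 5.33 and 6.44 in the unrescued libraries and 4.75, 6.40 and 4.72 in the rescued ones. The groups overlapped and 0 of the 9 passed by limma, with 2 at an unadjusted p below 0.05. Of 51 replication-dependent histone genes and 46 genes of small nucleolar and Cajal body RNAs, 0 passed by limma, with 4 and 6 at that unadjusted p. For the 5S rRNA gene n-R5s100 the difference was -0.33 with an SE of 1.14.

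In undepleted cells the same induction called no gene. By limma, 0 genes passed the adjusted p in si-CTL cells, with 4339 at an unadjusted p below 0.05, whereas 6533 reached that level in depleted cells. The difference between the siRNAs was tested directly. For 319 genes (1.94%) the effect of rescue was more negative in si-Rsl24d1 than in si-CTL cells and for 174 (1.06%) it was more positive, and 19 of them were called. Of the p53 list 25 genes were among the more negative and 0 among the more positive, with Mdm2 at -0.75 (adjusted p = 8.3e-08), Perp at -0.67 and Cdkn1a at -0.49. Of the pluripotency factors 0 were among the more negative and 6 among the more positive, with Zfp42 at 0.42 (adjusted p = 0.00048) and Fgf4 at 0.41. Of the replication genes 6 and of the glycolysis genes 3 were more positive, and of the cholesterol genes 0 in either direction.

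The RNA-binding protein gene Mov10 had the highest value in this test after Rsl24d1, 2210409E12Rik and Gm40977. It went from 4.33, 4.39 and 4.18 to 4.99, 4.93 and 5.09 in depleted cells, a rise of 0.70, and differed by -0.20 in si-CTL cells (adjusted p = 0.075). The difference between the siRNAs was 0.90 (adjusted p = 1.1e-06).

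At day 4, in RA and without LIF, the gap in Rsl24d1 was smaller. In scaled TPM the unrescued and rescued si-Rsl24d1 libraries held 91.03 ± 1.93 and 131.9 ± 3.17 (SD, n = 3), and the rise on the log2 scale was 0.53 (adjusted p = 1.8e-06) against 1.67 at day 0. Re-expression was followed by 16 called genes at day 4, 12 higher and 4 lower, and 631 genes passed the adjusted p. The p53 targets that had fallen at day 0 showed day 4 differences of -0.04 for Mdm2 (adjusted p = 0.58), 0.05 for Ccng1 (adjusted p = 0.46) and -0.18 for Cdkn1a (adjusted p = 0.0065). Nanog rose at day 4 as well (0.27, adjusted p = 6.3e-06), and Zfp42 by 0.21. Some genes fell at day 4 that had risen at day 0: Aldoa by 0.34, Ccne1 by 0.27, Fdps by 0.33 and Myc by 0.41. The day x rescue test called 109 genes.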

How the data were processed

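The table analysed holds 1 column of log2(TPM + 1) per library for 54242 genes. The deposited log2 values were made by the authors from reads, and processing notes name STAR 2.7.8a and Salmon 1.4.0 and the build GRCh38, whereas the study's methods give GRCm38 and DESeq2 for its own tests. Labels state a poly-A kit and DMEM, the methods a total RNA kit and GMEM. GENCODE vM21, used here for gene types and positions, holds 52259 of the symbols and lacks 1983.

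TPM were recovered, scaled by the median of ratios over 12096 genes at 1 TPM or more in every library, and taken as log2(scaled TPM + 1). Genes with a mean of 0.5 or more (16446) were tested with limma 3.58.1 (R 4.3.3), with 8 group means over 24 libraries, an intensity trend and Benjamini-Hochberg adjustment over all genes. Differences are on the log2(scaled TPM + 1) scale, which understates the change of low genes. Depth is unknown, so no counting interval is given. Replicate numbers did not pair the libraries: the residual correlations of rescued with unrescued libraries of the same number were -0.051, 0.016 and -0.187. No libraries were identical. An exact permutation test of 3 against 3 cannot go below p = 0.1 and was not used for calls. The fit was also run on simulated data with known changes, built from the group means and spread of these libraries. At the adjusted p of limma it recovered 74 of 100 changes of 0.4 and 99 of 100 changes of 1. In the same data 2 unchanged genes passed. The changes were placed only in genes with a mean above 3 in the unrescued group, while genes were tested from 0.5. Noise was drawn for each gene separately, so shifts of a whole library were not simulated. Fewer genes were changed than passed in the real data. These rates therefore need not hold for the libraries themselves.

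The comparison, the gene lists and the tests were chosen with earlier results of these data known. Named genes are a fixed set of 16, called genes whose libraries do not overlap, up to 3 per list and direction by smallest adjusted p, genes of the knockdown with an interval within 0.5 of 0, and up to 4 per interaction and direction. Other list members named were chosen after their values were seen. Some list members are not reported here.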

Additional observations from a re-analysis of the deposited data

Results flagged for a closer look

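The effect of re-expression differed between si-Rsl24d1 and si-CTL cells in 19 genes at day 0, and between day 0 and day 4 in si-Rsl24d1 cells in 109, by interaction terms in limma with the adjusted p and fold thresholds of the report. Groups of 3 libraries were too small for a search for single outlying libraries.

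Of the genes described, the siRNA difference was positive for 2210409E12Rik (1.57), Rsl24d1 (1.42), Gm40977 (1.09) and Mov10 (0.90). It was negative for Pm20d1 (-1.25), Gm49858 (-1.23), Gm6763 (-0.998), Gm45899 (-0.99), Apol8 (-0.89), Aldh1l1 (-0.88), Cpz (-0.88), Gm47404 (-0.88), Gm48764 (-0.87) and 5830418P13Rik (-0.86). Pm20d1, which encodes a secreted enzyme that makes N-acyl amino acids, stood at 3.58, 3.78 and 4.02 without and 2.84, 3.03 and 3.04 with rescue in depleted cells, and differed by 0.43 in si-CTL cells (adjusted p = 0.076).

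The day difference was positive, so that the effect was higher at day 0, for Gm31659 (1.90), Aldoc (1.23), the imprinted gene Phlda2 (1.22), 2210409E12Rik (1.16), Rsl24d1 (1.14) and Tnfsfm13 (1.00). It was negative for Gm45899 (-1.62), Gm49858 (-1.61), Gm48764 (-1.45), Shisal2b (-1.44), Gm47404 (-1.40), Gm6763 (-1.19), Ptprv (-1.13), Robo3 (-1.06), 5830418P13Rik (-1.06), Pm20d1 (-1.05), Plcd4 (-1.03), Apol8 (-0.89) and Tmtc3 (-0.87). Aldoc and Phlda2 rose with rescue at day 0, by 0.58 and 0.54, and fell at day 4, by 0.65 and 0.68. Gm45899, Gm47404, Gm48764 and Gm49858 did the reverse, with day 4 rises of 0.66, 0.52, 0.55 and 0.57.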

How the results depend on the processing

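The 23 called genes (9 higher, 14 lower) became 46 (5 and 41) in the TPM as deposited, 97 (43 and 54) with 0.1 in place of 1 added before the log, 11 (5 and 6) with 2 added, 14 (7 lower) among protein coding genes, 40 (17 and 23) at an adjusted p below 0.05 and 2508 (1163 and 1345) without the fold. Leaving out 1 library gave 19 to 41 called genes, 5 to 20 of them higher, with 41 and 20 without rescued library 3 and 5 without rescued library 1. The 1163 rises and 1345 falls became 504 rises as deposited, 365 and 502 when the 6 libraries were fitted alone, and 2172 and 2442 at an adjusted p below 0.05. Leaving out 1 library gave 608 to 1315 rises and 785 to 1355 falls, with 648, 773, 608 and 682 rises without unrescued libraries 1 and 2 and rescued libraries 1 and 2, in that order. Falls were 813, 785 and 846 without unrescued library 1 and rescued libraries 1 and 2. The 19 genes whose effect differed between the siRNAs became 47 with 0.1 added, 11 with 2 added, 34 at an adjusted p below 0.05 and 493 without the fold. Where fewer libraries were fitted the test had fewer samples, and otherwise the cause was not tested. With the replicate block 24 genes were called, 23 of them the same, and 1000 rose and 1172 fell. The block changed the call of Cdx2, Dnmt3b, Tdrd12 and Zfp352. In no alternative did a named gene that passed change direction and pass. As deposited 22 named genes no longer passed, and in the 6 libraries alone 38. With 1 library left out, 31 to 37 p53 genes fell, 8 to 11 pluripotency factors rose and 7 cholesterol enzymes rose. Rises of glycolysis genes went from 10 to 6 without unrescued library 1 or 3 or rescued library 1 or 2, and those of replication genes from 15 to 9 without unrescued library 1. Falls among developmental regulators went from 18 to 11 without rescued library 1 or 2. Falls of actin and matrix genes went from 10 to 6, 5, 4 and 5 without unrescued library 1 or 3 or rescued library 1 or 2, and rises of ATF4 targets from 8 to between 2 and 5 without any library but rescued library 3. Rises of small subunit assembly factors went from 5 to 2 or 3 without unrescued library 1 or 2 or rescued library 1 or 2, those of mitochondrial chaperones from 4 to 2 without unrescued library 1 or 3 or rescued library 2, and falls of two-cell stage genes from 4 to 2 without any library but rescued library 1. Ribosomal proteins that rose went from 1 to 8 (large subunit) and from 1 to 5 (small subunit) without rescued library 3. Falls of PRC1 subunits went from 4 to 2 without unrescued library 1 or 2 or rescued library 1 or 2, and falls of trophoblast markers from 3 to 1 without unrescued library 2 or rescued library 1 or 2. Rises of formative genes went from 2 to 0 without unrescued library 1 or 3 or rescued library 1 or 3, and falls of LIF-Stat3 genes from 3 to 1 without unrescued or rescued library 2. Depth limits cannot be given, since the table keeps no counts.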

Other observations

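The processed pseudogene Gm6457, chosen after its values were seen, shares 418 of its 468 stretches of 25 bases (89.3%) with Rsl24d1-201 and is too low to be tested. Its TPM were 0.109, 0 and 0 in unrescued depleted cells and 1.85, 1.96 and 0.58 in rescued ones. In si-CTL cells they were 0.174, 0.128 and 0.312 without rescue and 0.855, 0.52 and 0.417 with it, so that in both the rescued libraries lay above the unrescued ones. Gm20509, which overlaps Rsl24d1 on the same strand and shares 204 of its 992 stretches, was listed at 0 in all 6 depleted libraries. Whether reads of Rsl24d1 were assigned to the pseudogene was not tested.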
